A study of Homo sapiens with 4 samples.

Results

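H3K4me3 was examined at the start sites of 10 genes that carry glucose from the cell surface to lactate: SLC2A1, HK2, PFKP, ALDOA, TPI1, GAPDH, PGAM1, ENO1, PKM and LDHA. The genes have 11 listed start sites in hg19, because ALDOA is listed with 2. A peak belonged to a start site when it shared at least 1 bp with the 2 kb on either side. This gave 11 of the 36677 control peaks and 10 of the 23588 knockout peaks. The choice of peaks used positions alone and no measured value, but the genes were chosen with earlier results of these data known. MDA-MB-231 cells, a long-established line from a triple-negative breast tumour, were used. The groups were a control genotype and an ARID1A knockout, each with 1 immunoprecipitate (IP) made with an H3K4me3 antibody and 1 input library. Both IPs came from chromatin cut with micrococcal nuclease. The labels give no treatment, and do not say how the knockout was made or whether it is a clone or a pool. ARID1A loss itself and the cell type were not checked here, since a mark at a promoter tests neither. With 1 IP library per genotype there is no replicate, so no difference below has a test. All intervals are 95% intervals of counting error alone.

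H3K4me3 is a histone mark placed at active and poised promoters, usually strongest on the nucleosomes just downstream of the start site, and broad domains of it are found at highly transcribed genes. ARID1A is a DNA-binding subunit of the BAF (SWI/SNF) remodelling complex, which moves nucleosomes at promoters and enhancers. Glycolysis turns glucose into pyruvate, and tumour cells often send much of that pyruvate to lactate even with oxygen present. The transcription factors MYC and HIF1 are known regulators of many of these genes. HIF1 binds hypoxia response elements, and MYC with its partner MAX binds E-boxes.

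Promoters of 4 genes are shown to set genes with and without a knockout peak at the start side by side: SLC2A1 and LDHA had a knockout peak of over 1000 tags within 2 kb of the start, and HK2 and ALDOA had none within 2 kb. TPI1, which had the most knockout tags, is not among them, because its RefSeq entries do not begin at the outermost start of the gene. Each is the 200 bases before the outermost RefSeq start of the gene (GRCh38.p14, read on the gene's own strand). That start may differ from the listed hg19 start, and for ALDOA the table does not tell to which of the listed starts it belongs. Capitals mark matches on either strand. The E-box was searched as CACGTG. The core of the hypoxia response element was searched as ACGTG. The GC box, the motif of SP1, was searched as GGGCGG. The TATA box was searched as TATAAA.
SLC2A1: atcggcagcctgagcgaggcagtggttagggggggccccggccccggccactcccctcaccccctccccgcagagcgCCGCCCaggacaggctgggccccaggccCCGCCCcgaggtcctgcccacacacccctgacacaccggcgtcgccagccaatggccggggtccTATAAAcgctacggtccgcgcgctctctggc
LDHA: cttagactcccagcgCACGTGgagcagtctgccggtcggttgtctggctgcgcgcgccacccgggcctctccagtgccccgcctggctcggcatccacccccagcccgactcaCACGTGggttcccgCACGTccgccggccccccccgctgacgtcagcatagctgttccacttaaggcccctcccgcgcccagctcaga
HK2: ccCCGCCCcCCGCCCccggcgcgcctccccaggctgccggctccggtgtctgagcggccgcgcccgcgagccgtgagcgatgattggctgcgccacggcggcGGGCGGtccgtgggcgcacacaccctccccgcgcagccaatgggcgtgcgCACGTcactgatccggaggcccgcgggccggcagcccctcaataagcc
ALDOA: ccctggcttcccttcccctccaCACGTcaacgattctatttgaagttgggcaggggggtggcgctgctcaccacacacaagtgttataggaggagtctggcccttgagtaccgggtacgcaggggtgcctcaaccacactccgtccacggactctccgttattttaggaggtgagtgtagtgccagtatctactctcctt

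The LDHA stretch holds 2 E-boxes, whose first bases lie at -185 and -87 from the start, and 1 further hypoxia core at -73. The SLC2A1 stretch holds a TATA box at -31 and GC boxes at -123 and -95. HK2 has 3 GC boxes and 1 hypoxia core, and ALDOA has 1 hypoxia core. G and C make up 74.5% of the SLC2A1 stretch, 71% of LDHA, 78.5% of HK2 and 56% of ALDOA. The RefSeq table held all 10 genes, with 18 start entries between them, and the same 200 bases were searched in all of its 35116 promoters. An E-box occurred in 5.49% of all promoters and in 4 of the 18 entries, 1 each of HK2, ALDOA, GAPDH and LDHA. The hypoxia core, which every E-box contains, occurred in 15.6% of all promoters and in 9 of the 18 entries, from 6 genes. The GC box occurred in 40.1% of all promoters and in 11 of the 18 entries. The TATA box occurred in 8.59% of all promoters, and in 1 of the 18 entries, that of SLC2A1. A match is a run of letters and was not tested for binding.

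The control IP held 27748061 tags and the knockout IP 13391724. The control list had a median peak width of 2968 bp and the knockout list one of 300 bp, the fragment length set for peak calling in both lists. Of the IP tags, 62.1% lay in peaks in the control and 99.4% in the knockout. A tag count below is the raw number of IP tags in a peak. A start site with no knockout peak means that none was called there, and the files give no tag count for such a place. Only 84001 knockout tags lay outside peaks in the whole genome. The depth, the width of the peaks and the share of tags in peaks all moved with the genotype, and cannot be told apart from it.

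In the control cells all 10 genes carried a broad H3K4me3 domain. Each of the 11 start sites lay inside exactly 1 control domain, from 4501 bp wide at the upstream ALDOA start to 24618 bp at SLC2A1. All 11 were at least 4 kb wide, a width reached by 35.1% of all control peaks. At least 10 kb was reached by 4 of them, SLC2A1, PKM, ENO1 and TPI1, against 2.94% of all control peaks. The median width was 8470 bp. Strong peaks are wide, so a second background was the strongest 25% of control peaks by tags (675 tags or more, 9173 peaks), which held all 11 and was chosen for that. Its median width was 6319 bp, so a width of 4 kb is usual among strong peaks. The shares above are over all control peaks and were not worked out for this stronger class.

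Domain by domain, PKM, which encodes pyruvate kinase, and SLC2A1, which encodes the glucose transporter GLUT1, had the most control tags. The PKM domain (chr15:72514251-72532007) held 3382 tags (exact Poisson interval 3269 to 3498) over 17757 bp and stood in the top 0.537% of the control list. The SLC2A1 domain (chr1:43405649-43430266) held 3106 tags (2998 to 3217) and stood in the top 0.747%. The intervals of this pair do not overlap. PFKP, the platelet-type phosphofructokinase at the committed step, followed with 2248 tags (2156 to 2343) in chr10:3107496-3115965. ENO1, enolase, had 2116 tags (2027 to 2208) in chr1:8930543-8942226, and the intervals of these genes overlap.

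The middle of the order was close. TPI1, triose phosphate isomerase, held 1928 tags (1843 to 2016) in chr12:6974663-6984877. LDHA, which makes lactate from pyruvate, held 1715 (1635 to 1798) in chr11:18413893-18421096. GAPDH, the dehydrogenase often used as a reference gene, held 1669 (1590 to 1751) in chr12:6640719-6647619. In this step glyceraldehyde 3-phosphate is oxidised and NADH is made. PGAM1, phosphoglycerate mutase, held 1601 (1524 to 1681) in chr10:99182352-99190057. The interval of GAPDH overlaps those of both LDHA and PGAM1, so their order is within counting error.

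By single domain, those of ALDOA, aldolase A, and HK2, hexokinase 2, were lowest. The ALDOA domains were not added together, so this is not an order of whole genes. The downstream ALDOA start had a domain of 1500 tags (1425 to 1578) in chr16:30073775-30082958, and the upstream start a separate one of 767 tags (714 to 823) in chr16:30062361-30066861. The interval of the downstream ALDOA start overlaps that of PGAM1. HK2 had 1178 tags (1112 to 1247) in chr2:75059655-75065732. HK2 and the upstream ALDOA start were the sites outside the strongest 10% of the control list, which begins at 1305 tags. The median over the 11 domains was 1715 tags, against 168 for all control peaks and 1164 for the strongest 25%. Per kb of width the 11 domains were much alike, from 126 tags per kb at SLC2A1 to 265 at PFKP, with a median of 190.5 where the strongest 25% had 188.9.

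**Figure D1:**
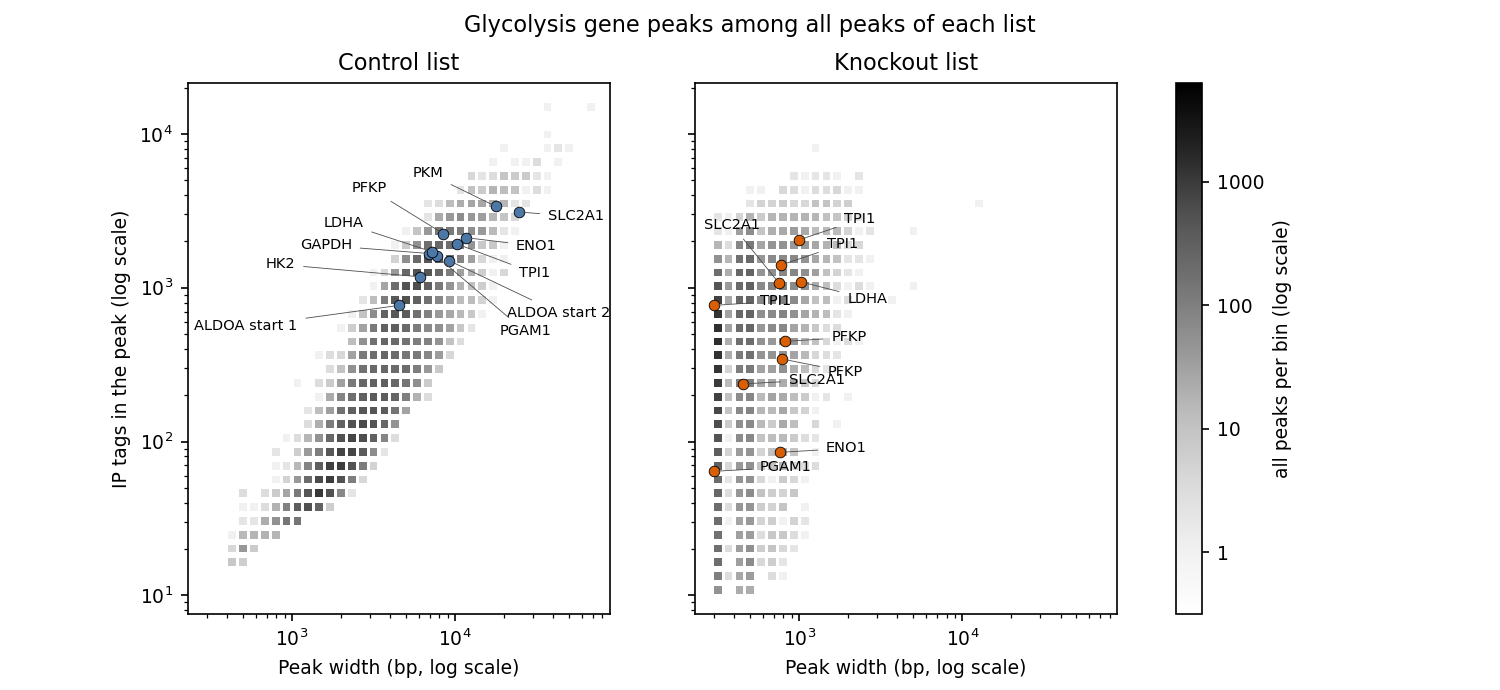
Peak width (bp, log axis) against IP tags in the peak (log axis) for the control list (left) and the knockout list (right); grey squares are bins of all peaks, shaded by their number, and coloured points are the peaks within 2 kb of the glycolysis start sites. The 11 control domains lie at the wide, tag-rich end, from 4501 to 24618 bp, and the 10 knockout peaks between 300 and 1031 bp.

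The control domains leaned downstream, into the genes. The control summit, the position with most overlapping tags, lay downstream of all 11 start sites, at a median of 481 bp. It was within 750 bp of the start at 7 sites, from 223 bp at PFKP to 703 bp at ENO1. At PKM it lay 1087 bp downstream, at SLC2A1 1146 bp, at HK2 2227 bp and at the downstream ALDOA start 2483 bp. Every domain reached farther downstream than upstream, by medians of 6253 and 2216 bp. HK2 was the most one-sided, reaching 127 bp upstream and 5950 bp downstream. PKM reached 8280 bp upstream, the farthest of the 11, and SLC2A1 19198 bp downstream. Several genes, HK2 and ALDOA among them, have more than 1 RefSeq start entry. All distances hold for the listed start only. In RefSeq (GRCh38.p14) several of these genes have another transcript beside their start, such as SLC2A1-DT, HK2-DT, GAPDH-DT and ENO1-AS1. Whether a stretch is exon or intron was not analysed here, for want of an hg19 annotation. Tags from the promoters of such neighbours cannot be told apart from those of the glycolysis genes within a domain.

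**Figure D2:**
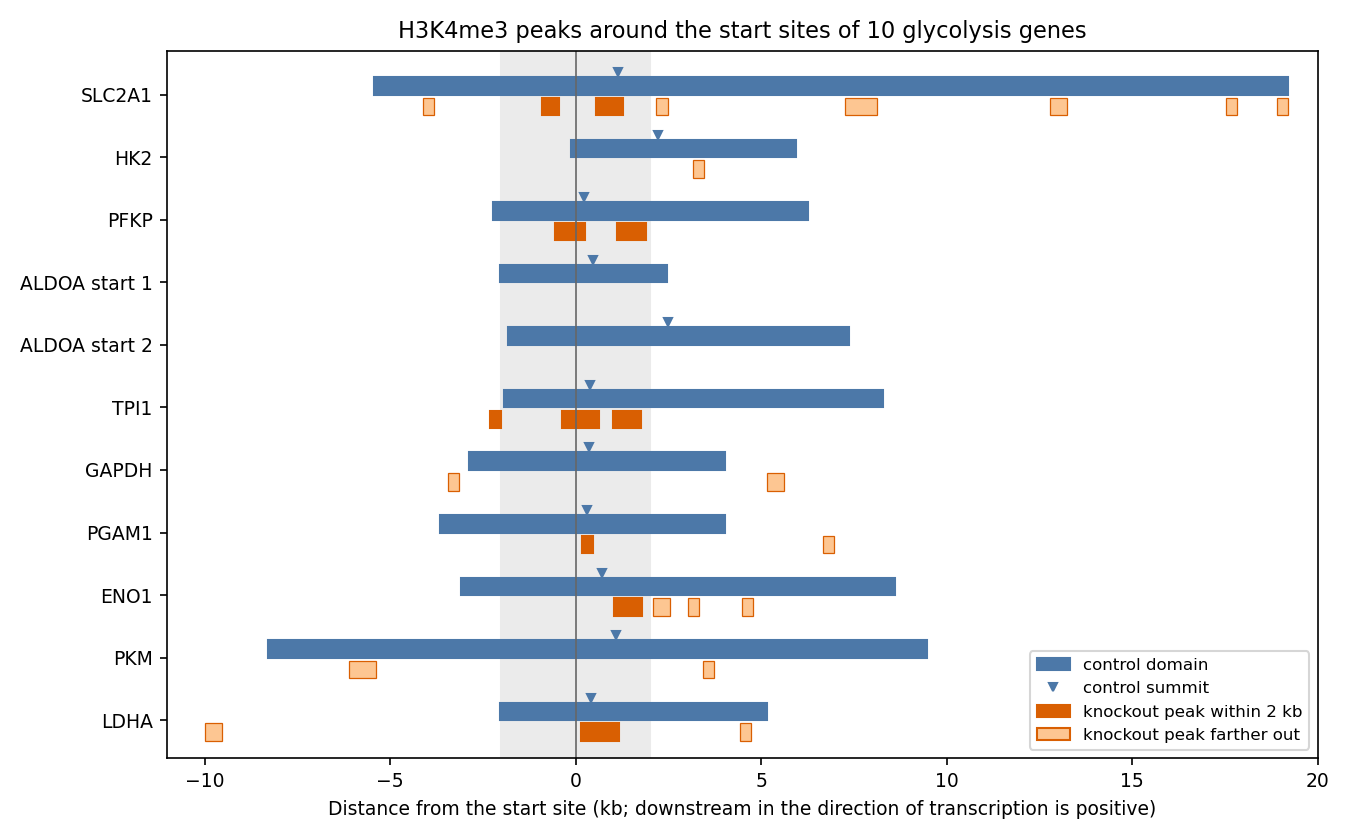
Peaks by distance from each start site (kb, downstream positive) with the 2 kb window in grey; blue bars are control domains with their summits as triangles, dark orange bars are knockout peaks within 2 kb and pale orange bars are other knockout peaks in the domain or within 10 kb. All 11 domains span the start site, and 6 of the 11 sites have a knockout peak within 2 kb.

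In the knockout list the same genes divided. A knockout peak lay within 2 kb of 6 of the 11 start sites, those of SLC2A1, PFKP, TPI1, PGAM1, ENO1 and LDHA. None was called within 2 kb of HK2, of either ALDOA start, of GAPDH or of PKM. No set of all hg19 start sites was used here, so the background comes from the control domains. Of the 11 domains 8 held a knockout peak somewhere, against 28.4% of all control peaks and 73.5% of the strongest 25%. A knockout peak came within 2 kb of the control summit in 7 of the 11, against 70.2% of the strongest 25%. Both shares are near those of the strongest 25%. At least 2 knockout peaks were held by 6 of the 11 domains, against 7.8% of all control peaks and 27.8% of the strongest 25%. A wider domain has more room for peaks, and the median width was 8470 bp here against 6319 bp in the strongest 25%. No share matched for width was made.

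At the uptake and early steps, SLC2A1 had the most knockout peaks. Its 2 peaks within 2 kb held 1077 tags (1014 to 1143; 748 bp, from 539 to 1286 bp downstream) and 237 tags (208 to 269; 453 bp, from 892 to 440 bp upstream). The larger (chr1:43423561-43424308) had its summit 9 bp from the control summit. Across the whole 24618 bp control domain the knockout list held 8 separate peaks with 3559 tags, which covered 15.3% of it. The richest of the others were 900 tags at 13016 bp downstream and 795 tags at 17673 bp downstream.

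HK2 had 1 knockout peak in its domain, 300 bp wide with 591 tags and a summit 3310 bp downstream of the start, outside the 2 kb window. PFKP had 2 of similar size. One of 821 bp (chr10:3109154-3109974) with 448 tags (407 to 491) covered the start site, and one of 785 bp with 344 tags (309 to 382) began 1110 bp downstream. Both PFKP peaks lay near the middle of the knockout list by tags, in its top 47.3% and 57.4%.

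ALDOA and GAPDH had no knockout peak in their control domains, and these 3 domains were the ones left without. The nearest knockout peak to the upstream ALDOA domain was 19943 bp away, and to the downstream one 3846 bp. The GAPDH domain was flanked on both sides. A 300 bp knockout peak with 444 tags ended 278 bp outside its upstream edge, and a 483 bp peak with 706 tags lay 1112 bp beyond its downstream edge. So at GAPDH 1669 control tags over 6901 bp faced no called knockout peak, with called peaks close by. The treatment of tags that fit several places, as at genes with processed pseudogene copies, is not given in the sources. Its bearing on any of the peaks here was not tested.

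TPI1 stood at the other end. Its knockout peak over the start site, 991 bp wide (chr12:6976224-6977214), held 2043 tags (1955 to 2134), in the top 2.32% of the knockout list. A second peak of 770 bp held 1403 tags (1331 to 1478) from 1003 bp downstream. One more, 300 bp wide with 768 tags (715 to 824), met the window by its last base, 2000 bp upstream, and lay 79 bp outside the control domain. TPI1 was thus the gene with most knockout tags near its start, 4214 in all, and 3446 without that edge peak, against 1928 control tags.

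PGAM1 and ENO1 had only weak knockout peaks within 2 kb. PGAM1 had 1 peak of 300 bp (chr10:99186199-99186498) with 64 tags (49 to 82), whose summit lay 21 bp from the control summit. ENO1 had 1 peak of 764 bp (chr1:8937350-8938113) with 85 tags (68 to 105), from 1038 bp downstream. Both were weak for the knockout list, at 89.6% and 87.2% from the top, whereas their control domains were in the top 6.02% and 2.72% of the control list. ENO1 held 3 more knockout peaks farther inside its domain, with 943 tags at 4626 bp downstream, 133 at 3171 bp and 14 at 2316 bp. PGAM1 had no other peak in its domain.

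At the exit of the pathway, PKM and LDHA differed in where the knockout peaks lay. The PKM domain held 2 knockout peaks, neither within 2 kb of the start. One of 300 bp with 789 tags had its summit 3586 bp downstream, and one of 725 bp with 1041 tags had it 5519 bp upstream. LDHA had a knockout peak of 1031 bp (chr11:18416085-18417115) with 1090 tags (1026 to 1157), from 149 to 1179 bp downstream of the start, the widest of the 10 knockout peaks. Another 108 tags lay in a 300 bp peak 4581 bp downstream. Of the printed promoters only that of LDHA has E-boxes, and those of LDHA, HK2 and ALDOA have a hypoxia core. Over all RefSeq entries an E-box occurred at HK2, ALDOA, GAPDH and LDHA, of which only LDHA had a knockout peak within 2 kb. The hypoxia core occurred at HK2, PFKP, ALDOA, TPI1, GAPDH and LDHA, of which PFKP, TPI1 and LDHA had such a peak. Neither motif was found in the bases searched at SLC2A1, PGAM1 and ENO1, which had such peaks, or at PKM, which had none. No relation between motif and peak was tested.

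**Figure D3:**
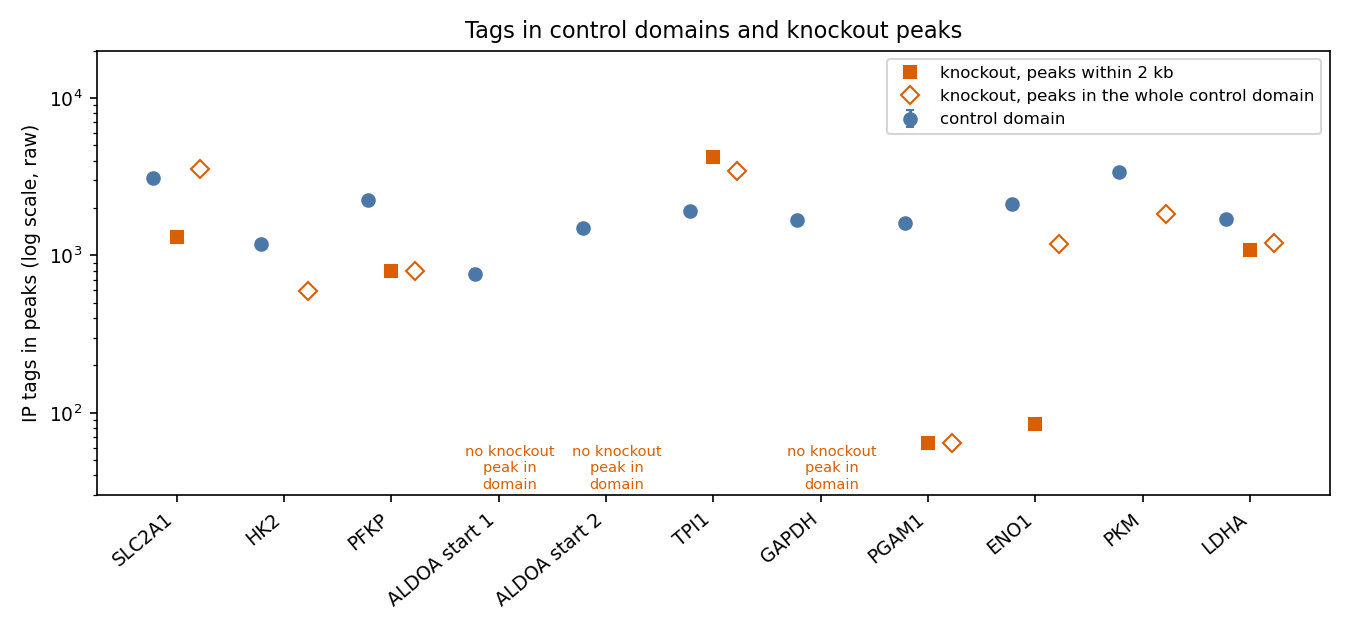
Raw IP tags (log axis) at each start site; blue circles are the control domain with exact Poisson intervals, smaller than most symbols, orange squares are knockout peaks within 2 kb summed, and open diamonds are knockout peaks in the whole control domain summed. TPI1 has 4214 knockout tags against 1928 control tags, PGAM1 has 64 against 1601, and ALDOA and GAPDH have no knockout peak in the domain.

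The knockout peaks were wider close to the starts than farther inside the domains. Within 2 kb their median width was 767 bp, and 7 of the 10, from 5 genes, reached at least 700 bp, a limit chosen after the widths were seen. With 5 kb on either side the median was 300 bp, that of the whole knockout list. The comparison with other domains needs all 22 knockout peaks inside the 11 control domains. Their median width was 462 bp, against 436 bp for the 10212 knockout peaks inside the strongest 25% of control domains. Of these 22 peaks 9 reached 700 bp, against 22.3% in the strongest 25% and 11.7% of all knockout peaks. Exactly 300 bp was the width of 10 of the 22, against 55% of the list. Peaks in 1 domain are not independent, and 8 of the 22 are from SLC2A1. The median was 396 tags, against 522 in the strongest 25% and 419 in the whole list.

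Knockout summits lay a median of 1712 bp from the control summit over the 22 peaks inside the domains, against 648 bp over the strongest 25% and 568 bp over all pairs. The long SLC2A1 and PKM domains hold peaks far from the summit, and over the 9 in-domain peaks within 2 kb of a start the median was 514 bp. The control summit itself fell inside a knockout peak at 5 of the 11 domains, those of SLC2A1, PFKP, TPI1, PGAM1 and LDHA, against 35.8% of the strongest 25%. The start site itself fell inside a knockout peak at PFKP and TPI1. The 2 kb limit fell close to a knockout peak at 3 genes. Just inside it was the TPI1 edge peak with 768 tags. Just outside were the ENO1 peak of 14 tags, which began 2080 bp downstream, and a SLC2A1 peak of 317 tags, which began 2180 bp downstream.

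Knockout tags were then set against control tags by gene, as the log2 ratio with 1 added to each count. Depth and enrichment differ between the libraries, so the ratio was centred on its median (-0.33) over the 10427 control domains that hold a knockout peak. Each domain's knockout peaks were counted over its whole width for this centre. Among these domains 26.7% were at least 2-fold lower and 25.1% at least 2-fold higher in the knockout, so a 2-fold value is common. The centred ratio falls as control tags rise. Its median was 0.997 below the strongest 25%, -0.19 from there to the strongest 10%, and -0.56 in the strongest 10%, which holds 7 of the 8 glycolysis domains with a knockout peak.

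With only the knockout peaks within 2 kb, 3 of the 6 genes were past 2-fold lower, 1 was past 2-fold higher and 2 lay between, with a median of -1.04. These values set knockout tags of a 4 kb window against control tags of a whole domain. They are lower by construction where knockout peaks lie farther in, and have no place among the whole-domain ratios. TPI1 was the high one, at 1.46 (binomial interval 1.38 to 1.54), and at 0.42 with a 1 kb window, which leaves only the peak over the start. PGAM1 was at -4.29 (-4.70 to -3.95) and ENO1 at -4.29 (-4.64 to -3.99).

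PFKP was at -1.17 (-1.29 to -1.06), and at -0.45 when tags were divided by the library totals. SLC2A1 was at -0.91 (-1.003 to -0.815), and LDHA at -0.32 (-0.43 to -0.21). These 3 genes lay between TPI1 and the low pair. The intervals count any copies of 1 fragment as separate tags and hold no variation between cultures.

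Counting knockout peaks over the whole control domain, an alternative chosen after seeing the data, is like for like with the other domains. It brought HK2 and PKM in and changed ENO1. ENO1 moved from -4.29 to -0.52 (-0.62 to -0.41), because 943 of its knockout tags lie in 1 peak 4626 bp downstream. SLC2A1 moved from -0.91 to 0.53 (0.46 to 0.60). HK2 was at -0.66 (-0.81 to -0.52) and PKM at -0.55 (-0.64 to -0.47).

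Of the 8 genes counted in this way, 5 lay within 2-fold of the typical domain. PGAM1 at -4.29 and PFKP at -1.17 were past 2-fold lower, and TPI1 at 1.17 past 2-fold higher. LDHA was at -0.18. The median over the 8 was -0.53, beside the -0.56 of the strongest 10%. TPI1 stood above 78.5% of all domains and PFKP above 23.7%. PGAM1 stood above 2.27%, the 1 gene of the 8 outside the middle 90%, and its value rests on 1 knockout peak of 64 tags. These places are among all domains with a knockout peak. They were not matched for control tags, with which the ratio falls.

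**Figure D4:**
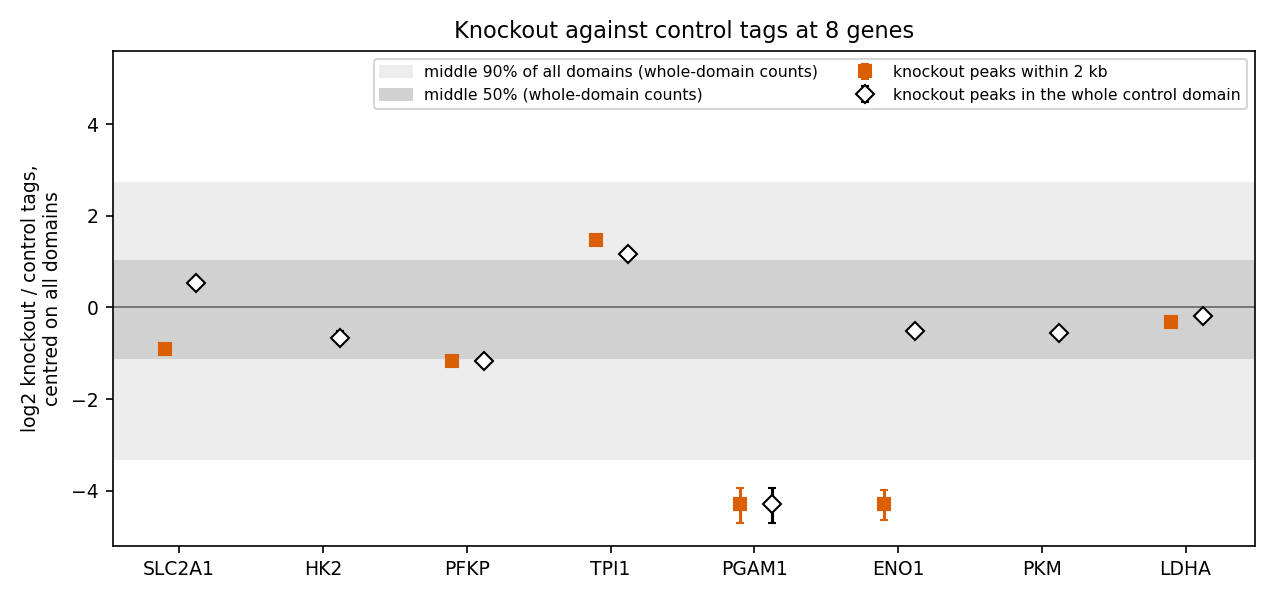
Centred log2 ratio of knockout to control tags for the 8 genes whose control domain holds a knockout peak, from knockout peaks within 2 kb (orange squares) or in the whole domain (open diamonds), with binomial counting intervals; grey bands are the middle 50% and 90% of all 10427 domains with a knockout peak, counted over the whole domain and so to be read with the diamonds only. Among the diamonds PGAM1 at -4.29 lies below the 90% band, and TPI1 at 1.17 is highest.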

How the data were processed

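H3K4me3 IP and input libraries of control and ARID1A knockout cells were grouped by their titles. The knockout header names its library K6, and the list was matched by its file name. In 3 libraries the label of the cell line ends in another number than in the series title, which was followed. Inputs carry IgG as antibody label. Alignment and peak calling are listed as Bowtie2 2.2.4 and MACS 1.4.3 on hg19 in the submitters' processing notes. Per the file headers, each IP was called against its own input with a p cutoff of 0.0001 and a fragment length of 300 bp, the larger library being scaled to the smaller and nothing being pooled. Tag counts are deposited raw, as IP tags per peak. The deposited fold enrichment (a ratio over local background), the deposited false discovery rate in percent and the deposited score, 10 times the negative log10 p, only filtered peaks within a list.

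Start sites were those listed for the genes in hg19. Peaks were joined by position with pandas 2.3.3, numpy 2.4.6 and scipy 1.17.1 under Python 3.11.15, and drawn with matplotlib 3.10.9. The overlap step was checked by direct search on a part of the real peak lists, and the ratio step on simulated Poisson counts. The intervals were not checked in this way. Intervals are exact Poisson for tags and exact binomial for ratios. Distances use the strand of RefSeq promoters. The genes, lists and alternatives were chosen with earlier results of these data known. All 10 genes were named whatever their values. The alternatives were other windows, stricter peak thresholds, equal list lengths, wider knockout peaks only, other scalings and a pseudocount of 5. Other genes of the pathway were not analysed here, for want of hg19 start sites.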

Additional observations from a re-analysis of the deposited data

How the results depend on the processing

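Of 101 recomputed counts and medians, 93 stayed within 1.5-fold. Only the median log2 ratio could change direction, and it did not under any alternative. Stricter peak thresholds and equal list lengths could not move the site counts, widths or tags of either list. All 11 control domains and all 10 knockout peaks pass them. These fixed values are among the 93, so they do not show stability. The 8 that moved were as follows. With the start site required inside the peak, 2 sites had a knockout peak, at a median of 1245.5 tags, with 1 gene 2-fold lower and 0 higher. No gene (0) was 2-fold higher with 1 kb either side, nor per kb of peak width. The median knockout width was 300 bp with 5 kb either side, and the median centred ratio was -0.32 after division by library totals. Single-gene ratios left their counting interval in 37 of 84 cases and no ratio past 2-fold changed sign. SLC2A1 turned to 0.18 per kb and to 0.53 over the whole domain, and LDHA to 0.40 after division by library totals. Division by library totals only replaces the centre, so it raised every gene's ratio by the same amount. For the scaling per kb the cause was not tested. Whole-domain counting, the 10 kb window and an overlap of at least 100 bp, under which TPI1 was at 1.17, were chosen after seeing the data. No paired analysis was possible because each genotype has 1 IP library. The sources do not say whether copies of 1 fragment were removed. The 300 bp knockout peak at TPI1 held 768 tags, more than 1 per base on each strand. Tags that share a position and strand were thus kept there, and whether they are copies was not tested. The depth may therefore overstate the precision.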

Other observations

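Knockout peaks within 10 kb of the start sites but outside the control domains numbered 4. The richest, of 469 bp with 1676 tags and in the top 4.51% of the knockout list, had its summit 9752 bp upstream of LDHA and lay in another control peak. The others were the 2 peaks that flank the GAPDH domain and a 300 bp peak with 73 tags at 6812 bp downstream of PGAM1, 2624 bp beyond its domain.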
